A study of Mus musculus with 6 samples.

Results

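The 8 genes described here encode proteins of the red cell membrane skeleton and its anchor in the membrane: *Sptb* (beta-spectrin), *Ank1* (ankyrin 1), *Epb41* (protein 4.1), *Epb42* (protein 4.2), *Slc4a1* (band 3), *Tmod1* (tropomodulin 1), *Dmtn* (dematin) and *Add2* (beta-adducin). They were chosen by symbol and matched to Ensembl identifiers with GENCODE M21 names, and all 8 were found among the 39179 genes of the count files. Gene expression was measured by RNA-seq of the bone marrow of 6 littermate mice treated with poly(I:C), an inducer of interferon, to compare mice expressing the human homeobox gene *CDX2* in blood-forming cells with control mice. The 3 *MxCDX2* mice (*RsCDX2::Mx1Cre*) carried the *CDX2* coding sequence behind a removable stop in the *Rosa26* locus (*RsCDX2*) together with a Cre recombinase driven by the interferon-inducible *Mx1* promoter (*Mx1Cre*). The 3 control mice had 3 different genotypes: control 1 was *RsCDX2* without Cre, control 2 was *Mx1Cre* without the *CDX2* allele, and control 3 was wild type. All 6 mice were 3 months old, were injected with poly(I:C) 3 times at 10 µg/g and were analysed 6 weeks later. The *Mx1* promoter responds to interferon in many cell types, and no control genotype was replicated.

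The membrane skeleton is a protein mesh under the lipid bilayer that lets red cells deform and recover their shape. Spectrin tetramers are its long fibres and meet at junctions of short actin filaments held by protein 4.1, adducin, dematin and tropomodulin, while ankyrin and protein 4.2 tie the mesh to the anion exchanger band 3. Most of these proteins are made in quantity by erythroblasts in the bone marrow, and inherited defects of spectrin, ankyrin, band 3 or protein 4.2 cause hereditary spherocytosis.

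Between 38646101 and 49899650 reads per mouse were assigned to genes, and 15980 genes passed the expression filter and were tested, all 8 skeleton genes among them. As a check of the labels, the mouse *Cdx2* identifier had 0 to 4 raw counts in the control mice and 152 to 183 in the *MxCDX2* mice. Reads were aligned to the mouse genome, and whether these came from the human *CDX2* sequence or the mouse gene was not tested. No library pair agreed within counting noise, and the share of reads outside annotated genes lay between 9.22% and 14.1%, highest in *MxCDX2* mouse 2. Counts are given as normalized counts, that is, counts scaled to the mean library size after TMM (trimmed mean of M-values) scaling. Genes were called where the absolute log2 fold change was above 1 and the adjusted p-value of edgeR's quasi-likelihood test was below 0.05. A gene's rise or fall in whole marrow cannot tell fewer cells of a type from less RNA per cell.

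The start sites of 5 of the 8 genes had a promoter window in the RefSeq table used here (GRCm38.p6, 250 bases before to 50 bases from the start on), and 1 window of each is printed 5′ to 3′ on the gene's own strand, because these genes fell together in the counts below. Capitals mark 2 short motifs on either strand. AGATAA is a form of the site bound by GATA factors, and CCNCNCCC a loose form of the CACCC box bound by Klf factors. Since N stands for any base, CCNCNCCC also matches other C-rich letters, and CACCC itself is in capitals only in *Sptb*. The windows are *Sptb* at chr12:76710498-76710797 (minus strand), *Epb41* at chr4:132075264-132075563 (minus strand), *Epb42* at chr2:121036828-121037127 (minus strand), *Tmod1* at chr4:46038972-46039271 (plus strand) and *Add2* at chr6:86028431-86028730 (plus strand).
Sptb: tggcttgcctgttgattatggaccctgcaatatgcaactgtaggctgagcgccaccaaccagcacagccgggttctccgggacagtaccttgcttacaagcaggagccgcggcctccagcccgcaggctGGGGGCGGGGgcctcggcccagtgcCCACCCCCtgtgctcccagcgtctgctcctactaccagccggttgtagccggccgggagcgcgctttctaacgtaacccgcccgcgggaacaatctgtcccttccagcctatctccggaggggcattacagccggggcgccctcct
Epb41: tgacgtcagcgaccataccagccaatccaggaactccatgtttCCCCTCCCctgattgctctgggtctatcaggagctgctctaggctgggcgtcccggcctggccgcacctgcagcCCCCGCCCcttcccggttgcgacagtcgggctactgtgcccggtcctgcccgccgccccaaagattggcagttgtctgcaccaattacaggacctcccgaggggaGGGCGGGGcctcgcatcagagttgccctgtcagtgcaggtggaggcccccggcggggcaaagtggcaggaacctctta
Epb42: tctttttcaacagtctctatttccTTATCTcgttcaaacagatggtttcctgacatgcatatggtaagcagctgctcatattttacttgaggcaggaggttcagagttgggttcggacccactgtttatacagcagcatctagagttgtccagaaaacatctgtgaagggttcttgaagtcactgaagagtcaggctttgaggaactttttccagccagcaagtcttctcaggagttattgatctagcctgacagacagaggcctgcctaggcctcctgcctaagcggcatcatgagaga
Tmod1: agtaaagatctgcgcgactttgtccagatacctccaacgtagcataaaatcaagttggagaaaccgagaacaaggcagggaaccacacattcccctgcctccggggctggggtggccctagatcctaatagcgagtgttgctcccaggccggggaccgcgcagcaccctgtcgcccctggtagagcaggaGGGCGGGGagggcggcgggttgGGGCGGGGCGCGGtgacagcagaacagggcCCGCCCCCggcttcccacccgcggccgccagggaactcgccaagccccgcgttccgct
Add2: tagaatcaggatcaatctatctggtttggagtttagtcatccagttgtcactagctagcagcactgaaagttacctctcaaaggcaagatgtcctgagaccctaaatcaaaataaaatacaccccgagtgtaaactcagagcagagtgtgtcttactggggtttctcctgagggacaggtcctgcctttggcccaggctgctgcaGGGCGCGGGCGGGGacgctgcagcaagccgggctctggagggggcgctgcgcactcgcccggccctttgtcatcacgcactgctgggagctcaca
Over all 7 windows of these 5 genes (*Epb41* has 3), AGATAA was in 1, that of *Epb42*, at -226 to -221 from the start on the opposite strand, and 11.2% of the 32851 mouse promoters in the table held it. CCNCNCCC was in 5 of the 7 windows, against 49.5% of all promoters, and some of its matches overlapped each other. *Sptb* had 3 matches, *Tmod1* 4, *Add2* 2 and *Epb42* none. ATAAA, a core of the letters recognised by Cdx proteins, was in 3 of the 7 windows, those of *Epb42*, *Tmod1* and *Add2*, and in 40.0% of all promoters, and it is not capitalised. These matches describe letters only.

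All 8 genes were lower in *MxCDX2* marrow and were called, with log2 fold changes from -3.48 (*Add2*) to -2.25 (*Epb41*) and a median of -3.37. Among the 15980 tested genes 9.03% were called lower, and the median log2 fold change was 0.00. Each gene was below every control mouse in every *MxCDX2* mouse, which held for 20.7% of tested genes. With DESeq2 all 8 were also called lower, against 10.9% of its 18508 tested genes. The calls rested in part on *MxCDX2* mouse 3: without it only *Epb41* and *Tmod1* stayed called, and the log2 fold changes of all 8 were between -3.24 and -2.20 with adjusted p-values from 0.0188 to 0.0680. Without each of the other 5 mice in turn all 8 were called.

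**Figure D1:**
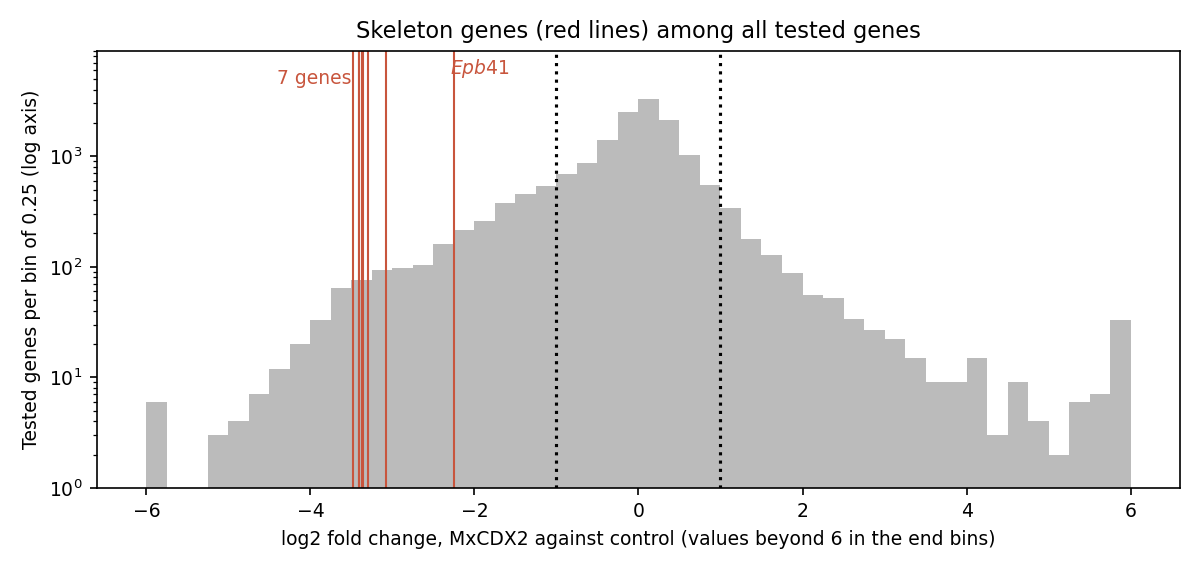
Number of tested genes (log axis) by log2 fold change, *MxCDX2* over control, in bins of 0.25, with the 8 skeleton genes as red lines and the fold threshold of 1 in either direction as dotted lines. The skeleton genes lie between -3.48 and -2.25, with *Epb41* nearest to 0.

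**Figure D2:**
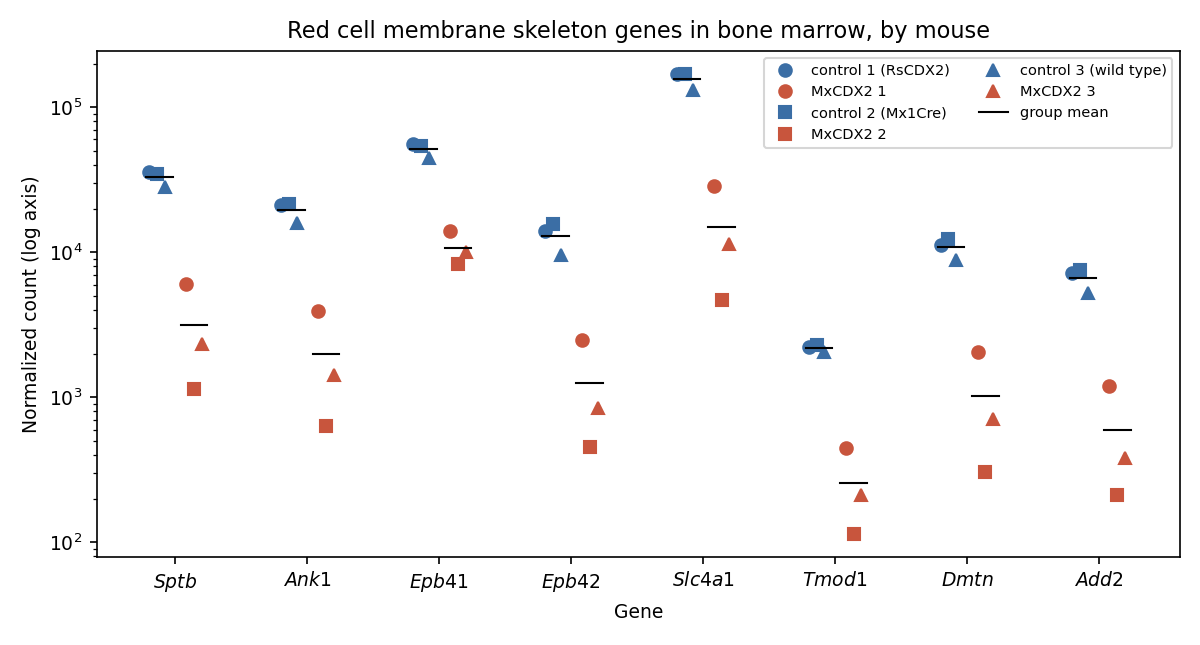
Normalized counts (log axis) of the 8 membrane skeleton genes, 1 point per mouse, with the 3 control mice in blue, the 3 *MxCDX2* mice in red and black lines at the group means. In every gene all *MxCDX2* points lie below all control points, and *MxCDX2* mouse 2 is the lowest.

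*Sptb* encodes the red cell beta chain of spectrin, the long fibre of the mesh (chr12:76580488-76710547, minus strand). *Sptb* had 35535, 34931 and 28160 normalized counts in control mice 1 to 3, and 6049, 1147 and 2332 in *MxCDX2* mice 1 to 3. The lowest control was 4.66 times the highest *MxCDX2* mouse, the widest gap of the 8 genes. The means were 32875 ± 4095 and 3176 ± 2557 (SD, n = 3 each), 10.4-fold lower in *MxCDX2* mice (log2 fold change -3.37, SE 0.60, adjusted p = 0.0106).

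*Ank1* (chr8:22974844-23150497, plus strand) encodes the adaptor that binds beta-spectrin on one side and band 3 on the other. Its normalized counts were 21360, 21511 and 16061 in the controls and 3950, 633 and 1420 in the *MxCDX2* mice. The groups did not overlap, and *MxCDX2* mouse 1 held several times the level of the other two. *Ank1* was 9.82-fold lower (log2 fold change -3.30, SE 0.65, adjusted p = 0.0149). An antisense gene shares 862 exon bases with *Ank1* and had 352 counts over all mice.

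*Slc4a1* (chr11:102348824-102366203, minus strand), the chloride-bicarbonate exchanger to which ankyrin and protein 4.2 attach, was the most abundant of the 8. It had 170349, 169565 and 131921 normalized counts in the controls and 28493, 4681 and 11389 in the *MxCDX2* mice. The highest *MxCDX2* mouse was far under the wild-type mouse, the lowest control. The means of 157278 ± 21963 and 14854 ± 12278 (SD, n = 3 each) differed 10.6-fold (log2 fold change -3.40, SE 0.65, adjusted p = 0.0136).

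*Epb42* (chr2:121017891-121037072, minus strand) encodes protein 4.2, a catalytically inactive member of the transglutaminase family that steadies the contact of band 3 and ankyrin. The controls had 13940, 15597 and 9513 normalized counts and the *MxCDX2* mice 2500, 454 and 841. The controls themselves spread more in this gene than in the other 7, the highest being 1.64 times the lowest, and the groups were apart. *Epb42* was 10.3-fold lower (log2 fold change -3.36, SE 0.64, adjusted p = 0.0134).

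*Epb41* (chr4:131923413-132075321, minus strand) encodes protein 4.1, which strengthens the binding of spectrin to actin and ties the junction to glycophorin C. It had 55535, 54142 and 44389 normalized counts in the controls and 14074, 8273 and 10007 in the *MxCDX2* mice. The groups were apart, and both the gap between them and the spread among *MxCDX2* mice were the smallest of the 8 genes. The means of 51355 ± 6073 and 10785 ± 2978 (SD, n = 3 each) differed 4.76-fold (log2 fold change -2.25, SE 0.23, adjusted p = 0.00219), the smallest change with the smallest error.

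*Dmtn* (chr14:70601263-70636048, minus strand) encodes dematin, which bundles actin filaments at the junctions. Its counts were 11239, 12351 and 8843 in the controls and 2058, 305 and 707 in the *MxCDX2* mice. The spread among *MxCDX2* mice was the widest of the 8, the highest being 6.76 times the lowest, and the groups did not overlap. *Dmtn* was 10.6-fold lower (log2 fold change -3.40, SE 0.67, adjusted p = 0.0152).

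*Add2* (chr6:86028681-86124409, plus strand) encodes beta-adducin, which caps the fast-growing ends of the actin filaments and recruits spectrin to them. Its counts were 7207, 7568 and 5259 in the controls and 1203, 213 and 384 in the *MxCDX2* mice. The groups were apart, and the fall was the largest of the 8, 11.1-fold (log2 fold change -3.48, SE 0.64, adjusted p = 0.0121). Ordered from the most negative log2 fold change, *Add2* was number 155 of the 15980 tested genes, and 6 of the other members stood between 181 and 293.

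*Tmod1* (chr4:46038935-46116032, plus strand) encodes tropomodulin 1, the cap of the slow-growing filament ends. It had 2215, 2293 and 2057 normalized counts in the controls, the tightest control spread of the 8 genes. The *MxCDX2* mice had 448, 115 and 212, all far below. The log2 fold change was -3.08 (SE 0.48, adjusted p = 0.00676), 8.48-fold lower. *Tmod1* shares 1287 exon bases with *Tstd2* on the opposite strand, which had 7929 counts over all mice, and the strand setting of the counting was not given in the sources used here.

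The 3 *MxCDX2* mice kept different shares of these transcripts. As a percentage of the control mean, the median over the 8 genes was 19.1% in mouse 1, 3.35% in mouse 2 and 7.16% in mouse 3. The 8 genes agreed closely within a mouse except for *Epb41*. In mouse 1 the genes lay between 18.0% (*Add2*) and 20.5% (*Tmod1*), with *Epb41* at 27.4%. In mouse 2 they lay between 2.82% (*Dmtn*) and 5.24% (*Tmod1*), with *Epb41* at 16.1%. Mouse 3 had 5.75% (*Add2*) to 9.71% (*Tmod1*), and *Epb41* was at 19.5%. The order of mice 1, 3 and 2 held in 8 of 8 genes, and in 26.0% of the 15980 tested genes. The wild-type mouse was the lowest control in all 8 genes. The share of all tested genes with that order was not computed, and the genotype was not replicated.

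**Figure D3:**
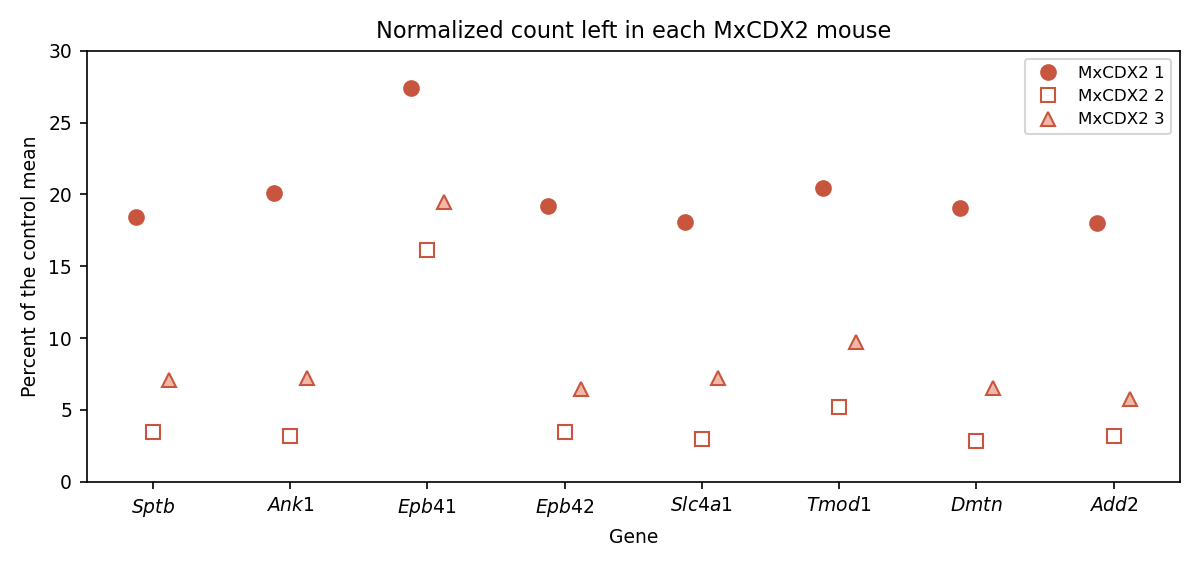
Normalized counts of each skeleton gene in each *MxCDX2* mouse as a percentage of the mean of the 3 control mice. *Epb41* and then *Tmod1* lie above the other genes in every mouse, and every gene is highest in mouse 1 and lowest in mouse 2.

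*Epb41* stood apart from the other 7 genes, a comparison chosen after the values were seen and made for all 8 genes. Its log2 count exceeded the mean log2 count of the other 7 by 1.76, 1.66 and 1.80 in the controls and by 2.26, 3.97 and 3.20 in the *MxCDX2* mice. The difference was thus larger in every *MxCDX2* mouse than in any control, by 1.40 on average. In mouse 2, where the other genes were lowest, it was largest. By the same measure *Sptb*, *Slc4a1*, *Dmtn* and *Add2* were also apart, the other way, by -0.21 (*Sptb*) to -0.38 (*Add2*). For these genes *Epb41* is part of the mean compared, and its smaller fall alone moves their differences below those of the controls. The comparison was not repeated without *Epb41*, so their separation from the remaining genes is not shown. The two-sided exact permutation p was 0.10 for each of them and for *Epb41*, the smallest possible. By log2 fold change *Epb41* was number 682 from the most negative, against number 155 to 293 for the other members. It has 19 annotated transcripts, and counts per gene do not separate them.

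Levels between genes were compared per length, as RPKM, counts divided by the length of the merged exons and by the library size. In the controls *Slc4a1* led at 706 ± 98.6 RPKM, followed by *Epb41* at 70.7 ± 8.36, *Sptb* at 59.4 ± 7.40 and *Epb42* at 52.8 ± 12.7 (SD, n = 3). *Ank1* followed at 31.9 ± 5.04 RPKM, *Dmtn* at 24.2 ± 4.01, *Add2* at 14.5 ± 2.69 and *Tmod1* at 12.2 ± 0.669. Band 3 mRNA was the most abundant, and its range did not meet that of *Epb41*. The ranges of *Epb41* and *Sptb* overlapped, as did those of *Sptb* and *Epb42*, *Ank1* and *Dmtn*, and *Add2* and *Tmod1*. Within every control mouse, however, *Epb41* was above *Sptb* and *Ank1* above *Dmtn*. The order of *Sptb* and *Epb42*, and of *Add2* and *Tmod1*, was not the same in all controls. In the *MxCDX2* mice the mean levels were 66.7 RPKM for *Slc4a1*, 14.9 for *Epb41*, 5.74 for *Sptb* and 5.13 for *Epb42*. The lowest pair changed places there, *Tmod1* at 1.44 RPKM and *Add2* at 1.30. The spacing depended on the length used. With the length of the longest transcript in place of merged exons, the control means were 760 RPKM for *Slc4a1*, 136 for *Epb41*, 69.4 for *Sptb* and 69.4 for *Epb42*, so *Epb41* was then nearer to *Slc4a1* and well above *Sptb*.

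A list of 20 other genes of the same membrane was also examined, with further skeleton proteins, actin and tropomyosin of the junctions, glycophorins, the Rh complex and further channels and blood group proteins. Of these 20 genes, 19 were tested and *Icam4* had 0 counts in every mouse. Their values were mixed: 11 were called lower (background 9.03%), 1 higher (background 4.59%) and 7 were not called, with a median log2 fold change of -1.36. Among the largest falls were those of *Aqp1*, a water channel (-3.62, SE 0.58, adjusted p = 0.00778), and *Rhd*, an Rh protein (-3.53, SE 0.69, adjusted p = 0.0150). *Gypc*, the glycophorin held by protein 4.1, fell by 1.62 on the log2 scale (SE 0.19, adjusted p = 0.00318).

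The partner called higher was *Piezo1*, a mechanically gated cation channel that is also present in other cells. It had 3901, 4168 and 3020 normalized counts in the controls and 8028, 9433 and 8236 in the *MxCDX2* mice (log2 fold change 1.21, SE 0.15, adjusted p = 0.00331). *Stom* (log2 fold change 0.40, adjusted p = 0.101) and *Tpm3* (0.37, adjusted p = 0.0533) were also above all controls in every *MxCDX2* mouse and were not called. Beta-actin (*Actb*), which supplies the short filaments and is made in all cells, had a log2 fold change of -0.13 (adjusted p = 0.719). The tropomyosin gene *Tpm1* was called lower (log2 fold change -1.62, adjusted p = 0.0426), but its count was highest in the wild-type mouse and without that mouse its log2 fold change was -0.88 and it was not called.

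Each of the 8 genes has relatives of the same protein family, most of them used in other cells. Of these relatives 28 were listed and 25 were tested. *Add1* and *Add3* are also proteins of the red cell skeleton and count under both partners and relatives. The values of the relatives were mixed: 4 were called lower (background 9.03%), 2 higher (background 4.59%) and 19 were not called, with a median log2 fold change of -0.07. In every *MxCDX2* mouse 5 of the 25 were above all controls, against 21.4% of tested genes, and 8 were below all controls, against 20.7%. The largest changes among the called relatives were in *Tgm3* (3.78, SE 0.46, adjusted p = 0.00329), *Tgm2* (-1.80, SE 0.50, adjusted p = 0.0465) and *Ablim1* (-1.72, SE 0.37, adjusted p = 0.0198). The other called relatives were *Add1*, *Epb41l3* and, higher, *Tgm1* (1.41, SE 0.37, adjusted p = 0.0383). Leaving out 1 mouse at a time, the call was kept in 6 of 6 fits for *Tgm3*, in 4 for *Ablim1* and in 2 each for *Tgm1*, *Tgm2* and *Epb41l3*. *Tgm2* and *Tgm3* encode transglutaminases, the enzyme family of protein 4.2, and *Ablim1* an actin-binding relative of dematin. *F13a1*, which encodes another transglutaminase, was not listed among the relatives but among the monocyte markers. It had more normalized counts than *Tgm2* in every mouse.

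*Sptbn1*, the most abundant other beta-spectrin, had 12896, 13883 and 12584 normalized counts in the controls and 19289, 22109 and 22183 in the *MxCDX2* mice. All *MxCDX2* mice were above all controls, with a log2 fold change of 0.69 (SE 0.11, adjusted p = 0.00844) that was under the fold threshold. Per length, *Sptb* stood above *Sptbn1* in the controls (59.4 against 16.5 RPKM) and below it in the *MxCDX2* mice (5.74 against 26.6 RPKM). The log2 ratio of *Sptb* to *Sptbn1* counts went from a mean of 1.32 in the controls to -3.06, a change of -4.38, the largest of the 8 pairs.

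Tropomodulin 3 and alpha-adducin are the relatives among the filament caps. *Tmod3* had 6894, 6730 and 6844 normalized counts in the controls and 6882, 4687 and 6027 in the *MxCDX2* mice (log2 fold change -0.22, SE 0.15, adjusted p = 0.340). Per merged exon length, *Tmod1* and *Tmod3* had 12.2 and 13.4 RPKM in the controls and 1.44 and 11.5 RPKM in the *MxCDX2* mice. With the length of the longest transcript the control means were 15.2 and 38.2 RPKM, so the likeness of their control levels depended on the length used. *Add1*, the partner subunit of *Add2*, had 23020, 23878 and 20899 in the controls and 10709, 11643 and 10741 in the *MxCDX2* mice, a log2 fold change of -1.03 (SE 0.11, adjusted p = 0.00241). Every *MxCDX2* mouse was thus well below the controls in *Add1* as well, though by less than in *Add2*. The call of *Add1* was at the fold threshold and was lost without control 2 (log2 fold change -0.99) and with scaling by total counts only (-0.91).

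In 7 of the 8 genes the log2 difference to its most abundant listed relative was lower in all *MxCDX2* mice than in all controls. For such differences the share over all tested genes was not computed, and all 8 genes were themselves below every control. Beside *Sptb*, the changes were -3.93 for *Slc4a1* against the anion exchanger gene *Slc4a2*, -3.41 for *Dmtn* against *Svil* and -3.06 for *Tmod1* against *Tmod3*. They were -2.80 for *Add2* against *Add1*, -2.44 for *Epb41* against *Epb41l2* and -1.73 for *Epb42* against *Tgm2*. Each of these 7 had a two-sided exact permutation p of 0.10, the smallest that 3 against 3 mice allow, so none of the 8 comparisons made could pass 0.05. *Ank1* against *Ank3* changed by -1.51 with overlapping groups (exact permutation p = 0.30). The log2 differences of that pair were 7.11, 7.47 and 4.08 in the controls and 5.34, 3.85 and 4.94 in the *MxCDX2* mice, so the overlap rested on the wild-type mouse, and without it 8 of 8 pairs were apart. *Ank3* had 153, 120 and 947 normalized counts in the controls, and its lower level rested on the wild-type mouse: the log2 fold change was -2.73 (SE 0.88, adjusted p = 0.0708) with that mouse and -1.14 without it.

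**Figure D4:**
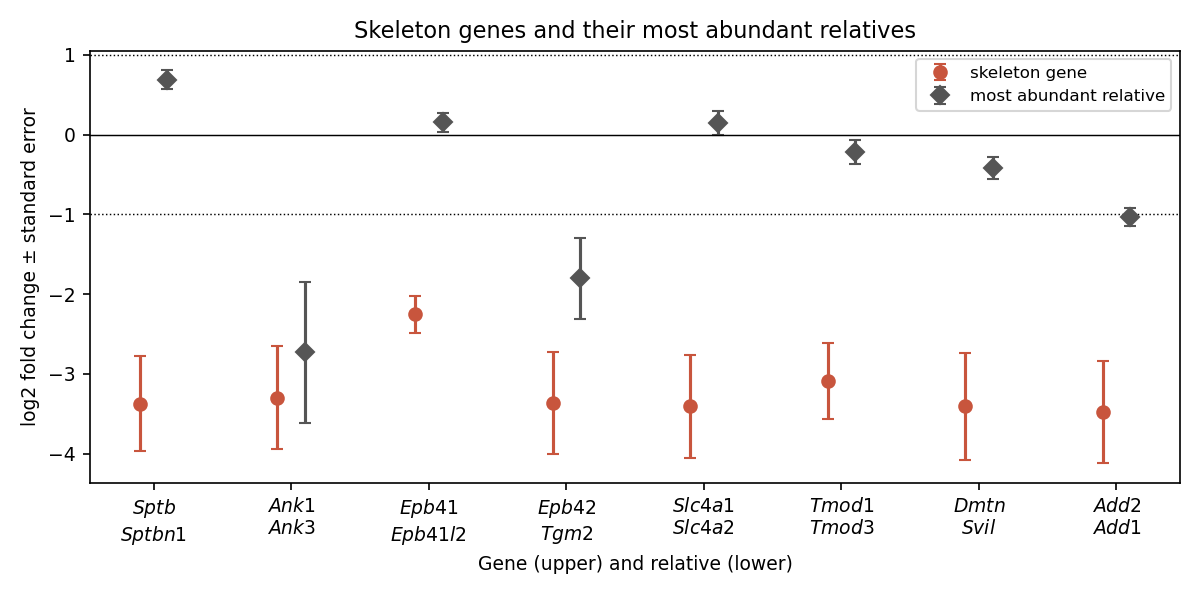
Log2 fold changes (*MxCDX2* over control) of each skeleton gene (red) and of its most abundant listed relative (grey), with bars of 1 standard error and dotted lines at the fold threshold of 1. The relatives lie above the skeleton genes in all 8 pairs, and the bars overlap only for *Ank1* and *Ank3*.

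The share of each family's transcripts, per length, that came from the red cell gene was taken over the listed relatives only. *Sptb* made up 75.8% to 79.6% of beta-spectrin RPKM in the controls and 6.84% to 30.8% in the *MxCDX2* mice. *Epb42* went from 70.8% to 81.3% of its summed level with *Tgm1*, *Tgm2* and *Tgm3* down to 6.66% to 33.7%. The transglutaminase gene *F13a1* was left out of that sum. It had 44.4 RPKM in the controls and 371 in the *MxCDX2* mice, so the shares of *Epb42* would be lower with it. *Tmod1* went from 45.1% to 47.6% down to 5.95% to 15.0%. *Dmtn* had 36.8% to 40.2% in the controls and 2.03% to 13.5% in the *MxCDX2* mice, and *Add2* 11.1% to 15.4% and 0.696% to 4.64%. The relatives of *Add2* include its partner subunit gene *Add1*. In 3 families the red cell gene was still the majority: *Epb41* at 56.5% to 68.4% (controls 87.2% to 90.2%), *Slc4a1* at 72.3% to 94.5% (controls 99.0% to 99.1%) and *Ank1* at 96.7% to 98.9% (controls 97.6% to 99.7%). Only the ranges of *Ank1* overlapped between the groups.

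**Figure D5:**
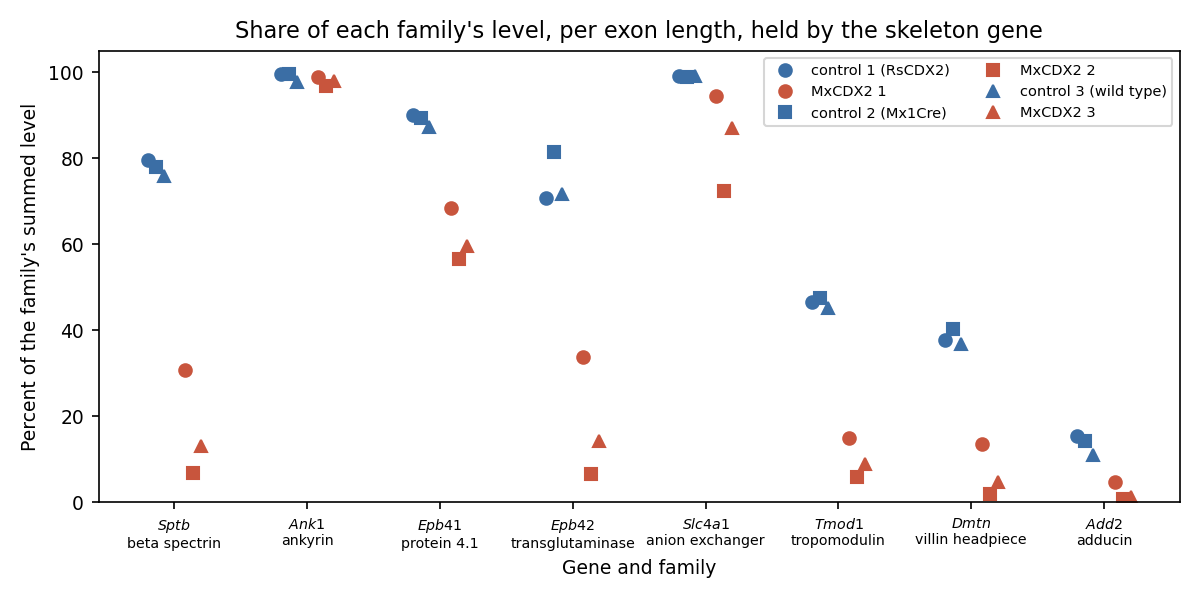
Percentage of each protein family's RPKM, over the listed relatives, that came from the red cell membrane skeleton gene. There is 1 point per mouse, with controls in blue and *MxCDX2* mice in red. The transglutaminase gene *F13a1* was left out of the sum for protein 4.2. Beta-spectrin, protein 4.2, tropomodulin, dematin and adducin lie at 33.7% or less in every *MxCDX2* mouse, while *Ank1* is at 96.7% or more.

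Other erythroid genes moved with the skeleton genes. Of 12 erythroid marker genes 11 were matched and tested and all 11 were called lower, with a median log2 fold change of -3.60. Their summed normalized counts were 1718970 to 2075900 in the controls and 52058.6 to 189266 in the *MxCDX2* mice, 5.92% of the control mean. The largest falls were in the globin genes *Hba-a1* (-4.24), *Hba-a2* (-4.22) and *Hbb-bs* (-4.19). *Hba-a1* and *Hba-a2* are near-identical copies between which reads can be split. Averaged on the log2 scale, the erythroid markers fell by 3.91, and by 3.63 without the 4 globin genes, and the 8 skeleton genes by 3.50.

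Relative to the mean log2 count of the erythroid markers, 6 skeleton genes changed by 0.07 (*Add2*) to 0.24 (*Ank1*), within the overlap of the groups. *Epb41* and *Tmod1* were higher relative to the markers in every *MxCDX2* mouse than in any control, by 1.63 and 0.61 (two-sided exact permutation p = 0.10 each, the smallest possible, over 8 comparisons). Without *MxCDX2* mouse 2 the number of genes apart rose from 2 to 5. The share of all tested genes apart from the markers was not computed. With the 4 globin genes left out of the markers, the same pair was apart, by 1.35 and 0.34. The changes of the other 6 then turned negative, from -0.20 (*Add2*) to -0.04 (*Ank1*), again with overlapping groups.

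Of 10 transcription factors that act in red cell development, 6 were called lower, none higher and 4 were not called, with a median of -1.78. *Klf1*, which binds the CACCC box, had 7090, 7398 and 6382 normalized counts in the controls and 1355, 244 and 387 in the *MxCDX2* mice. Its log2 fold change was -3.40 (SE 0.64, adjusted p = 0.0129), and any part of *Klf1* in the fall of the skeleton genes was not tested. *Gfi1b* fell by 3.13 on the log2 scale and *Gata1*, the erythroid GATA factor, by 3.01. *Nfe2* (-0.52), *Lmo2* (-0.58), *Ldb1* (-0.44) and *Ikzf1* (-0.23), which also act in other blood cells, were not called.

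Markers of other marrow cells also differed between the groups, and their part in the values above was not tested. Of 10 monocyte markers 7 were called higher (background 4.59%). The summed normalized counts of the 10 were 87791 to 109764 in the controls and 381564 to 431550 in the *MxCDX2* mice. Called lower (background 9.03%) were 6 of 10 neutrophil markers (1937950 to 3115290 against 887729 to 1203350). Of the neutrophil markers not called, *Camp* and *Ngp* were below all controls, while *Mpo* (log2 fold change 0.31) and *Elane* (-0.31) overlapped them. Also called lower were 4 of 8 B-cell markers (18588.4 to 47868 against 4046.03 to 13179.1), 2 of 8 T- and NK-cell markers (6579.41 to 12969.7 against 2873.37 to 5978.84) and 4 of 10 megakaryocyte markers. The megakaryocyte sum was 30762.2 to 345288 in the controls, the highest being the wild-type mouse, and 12581.9 to 17456.6 in the *MxCDX2* mice. Without the wild-type mouse, 7 of 8 B-cell and 7 of 10 megakaryocyte markers were called lower, and all 8 skeleton genes were still called.

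The genes whose profile over the 6 mice was most like the mean profile of the 8 were sought. The 11904 other genes whose normalized counts averaged 100 or more were compared by the root mean square (RMS) difference of log2 counts. Each gene was first centred on its mean over all 6 mice. The nearest 8 were *Slc6a9* (0.063), *Car2* (0.086), *Cdkl1* (0.090), *Trim58* (0.107), *Tspan33* (0.112), *Slfn14* (0.123), *Paqr9* (0.147) and *Sox6* (0.147), and the median over all genes was 1.91. *Slc6a9* encodes a glycine transporter, *Car2* a carbonic anhydrase, and *Sox6* a transcription factor of red cell development. Of the 8 skeleton genes, which are themselves part of the mean, 7 lay between 0.106 (*Sptb*) and 0.210 (*Dmtn*) from it. *Epb41* lay at 0.750, farther than 230 of the other genes.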

How the data were processed

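Poly(A)-selected, stranded RNA-seq of whole bone marrow was made from 6 mice. Per the submitters' processing notes and the methods, the authors used bcl2fastq (2.17.1.14), aligned reads with STAR (2.5) to GRCm38 with Ensembl release 90, and counted them per gene with HTSeq (0.6.1). The authors deposited raw counts, 1 file per mouse, without normalization. Reads assigned to no gene (9.22% to 14.1%) were left out. Groups came from the labels, and control mice are numbered in the order listed.

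Symbols and exon lengths were taken from GENCODE M21. Counts were fitted in R 4.3.3 with edgeR 4.0.16 (TMM, default filterByExpr, glmQLFit, glmQLFTest) over all 6 mice without covariates, with Benjamini-Hochberg adjustment over 15980 genes. SE was derived from the quasi-likelihood F statistic. The fit was tested on simulated data with 200 changed genes. Single differences used exact two-sided permutation tests on log2(normalized count + 1). DESeq2 1.42.0 and limma 3.58.1 were alternatives. Figures and tables used Python 3.11.15, pandas 2.3.3, numpy 2.4.6, scipy 1.17.1 and matplotlib 3.10.9.

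Members and gene lists were chosen with earlier results of these data known. All 8 members and the most abundant listed relative of each member were named. From the lists of partners, relatives, factors and erythroid markers the 3 largest called changes and called genes on the other side of the list's median were named, and a few more by role after their values were seen. Some genes that this rule names are not reported here. Other marker lists are given as counts and sums. The p-values of edgeR set the group difference against the spread between mice within groups. In the controls that spread also holds the differences of genotype.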

Additional observations from a re-analysis of the deposited data

How the results depend on the processing

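All 8 skeleton genes were called in 12 of 15 alternatives, among them DESeq2, limma voom, other scalings and expression filters. Tested against a log2 fold change of 1, 4 of them were called, with 5 of the partners, 1 of the relatives and 611 of all genes, in place of 8, 12, 6 and 2177. At an adjusted p-value below 0.01, 2 skeleton genes, 6 partners, 2 relatives and 1043 genes were called. With each mouse left out in turn the counts were 2 to 8 for the skeleton genes, 7 to 12 for the partners, 3 to 6 for the relatives and 1205 to 2406 for all genes. The skeleton genes apart from the erythroid markers were 2 to 5, the highest without MxCDX2 mouse 2. The causes were not tested. Of 120 log2 fold changes of the 8 genes under these alternatives none changed sign and 16 were no longer called. Scaling by total counts only moved the median of all genes by 0.12 on the log2 scale. Without the wild-type mouse the partners had 10 called lower and 1 higher. No paired analysis was possible because the labels number the MxCDX2 mice only. With 3 mice per group a permutation test cannot go below 0.10.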
